A study of Homo sapiens with 5 samples.

Results

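Antibody 1, a rabbit polyclonal and non-commercial antibody raised against PRDM11, gave 1 library of precipitated chromatin, and its peaks were called separately against 2 controls. The members described here are all peaks of these 2 lists, 13499 called against rabbit IgG and 54038 called against input, or 67537 of the 1150695 peaks in the 6 lists of the series. Chromatin came from untreated U2932 cells, an established line from a human lymphoma, and was cross-linked, sonicated and precipitated before sequencing (ChIP-seq). The other libraries were antibody 2 against PRDM11, an antibody against RNA polymerase II (RNAPII), rabbit IgG and unprecipitated input. All 5 came from the same untreated line, with 1 library each. No library from cells lacking PRDM11 was analysed here, so none of the peaks is tied to the protein itself by these data.

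PRDM proteins carry a PR domain, which is related to the SET domain of histone methyltransferases, and many of them act as regulators of transcription. RNAPII transcribes protein-coding genes and many noncoding RNAs and accumulates at active start sites. A ChIP peak is a stretch with more reads in the precipitate than in the control. Input is chromatin sequenced without precipitation and carries the local yield of fragments, including extra gene copies. IgG has in addition passed through a precipitation with an antibody of no intended target. The same ChIP reads can therefore give different peaks with each control.

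Peaks were sorted into classes by an overlap of at least 1 bp between the lists. Of the IgG-list peaks, 10972 (81.3%) overlapped an input-list peak and are called dual-control peaks here, and 2527 did not and are called IgG-only peaks. Of the input-list peaks, 10525 (19.5%) overlapped an IgG-list peak and are the same dual-control sites as drawn against input, and 43513 were input-only peaks. Merged over both lists, these made 56429 regions, of which 18.4% were called against both controls, 4.48% against IgG only and 77.1% against input only. The dual-control peaks covered 3.20 Mb in the IgG list and 3.85 Mb in the input list. IgG-only peaks covered 0.356 Mb and input-only peaks 11.8 Mb. With 1 library there is no error between replicates and no p-value. Intervals in parentheses are exact (Clopper-Pearson) 95% binomial intervals over peaks, which take each peak as independent and reflect counting error alone. The lists hold positions on build hg19 without reads, so the depth behind a peak is unknown.

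Chromosomes 3 and 18 were set apart, because they held most of the input-only peaks. They made up 9.19% of the span of all chromosomes, measured from the first to the last peak of any list, and held 9.18% (8.64% to 9.73%) of the dual-control peaks. IgG-only peaks were a little rarer there, at 7.08% (6.11% to 8.15%). Input-only peaks were far more frequent, with 55.7% (55.2% to 56.1%) of the class and 73.9% of its bases. On chromosome 18 the input-only class reached 171.4 peaks per Mb, and on chromosome 3 it reached 54.9 per Mb. The remaining chromosomes together had 7.07 per Mb, so the densities were 24.2 and 7.75 times as high on chromosomes 18 and 3. Dual-control peaks had nearly the same density in all 3 places, with 3.64 per Mb on chromosome 18, 3.65 per Mb both on chromosome 3 and elsewhere.

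**Figure D1:**
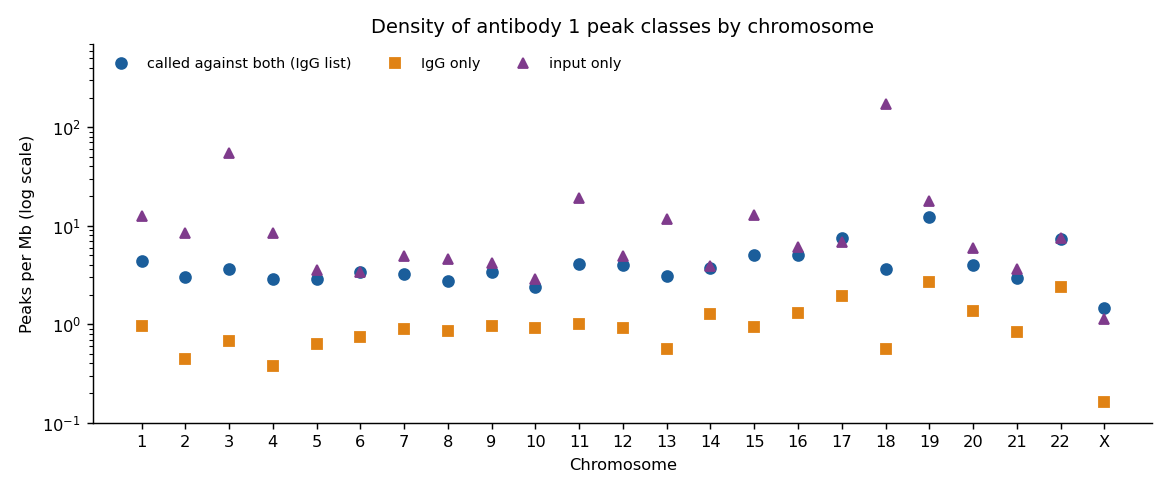
Peaks per Mb (log scale) of dual-control, IgG-only and input-only antibody 1 peaks on each of 23 chromosomes; each point is 1 class on 1 chromosome. Input-only peaks stand far above the other classes on chromosome 18 (171.4 per Mb) and chromosome 3 (54.9 per Mb), where dual-control peaks keep 3.64 and 3.65 per Mb.

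The ratio of input-list to IgG-list peaks was highest on chromosome 18, at 41.6, followed by 13.4 on chromosome 3. Over the other 21 chromosomes with peaks in both lists it ran from 1.49 through a median of 1.81 to 4.51. Its lowest values were on chromosomes 14 and 17, with 657 against 441 peaks and 1149 against 771 peaks. The highest value outside chromosomes 3 and 18 was on chromosome 11, with 3112 against 690 peaks. Chromosomes 1, 11 and 2 together held 40.2% of the input-only peaks found outside chromosomes 3 and 18. Chromosome Y held a single IgG-only peak and no input-list peak.

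Most IgG-list peaks were found again against input, a little more often on chromosomes 3 and 18 than elsewhere. The share was 84.9% (82.7% to 86.9%) on chromosomes 3 and 18 and 80.9% (80.2% to 81.6%) elsewhere. Over the 21 other chromosomes it ran from 72.1% (67.7% to 76.3%) on chromosome 10 to 89.9% (85.5% to 93.4%) on chromosome X, with a median of 80.1%. Chromosomes 3 (84.3%) and 18 (86.6%) lay within this range. Input-list peaks covered 9.20 Mb of a span of 275.8 Mb on chromosomes 3 and 18, and 6.42 Mb of 2726.6 Mb elsewhere. A match is thus easier there, and what part of the share comes from this was not tested. For input-list peaks the share differed between the 2 places. This partly restates the choice of chromosomes 3 and 18, which were set apart for their many input-only peaks. On chromosomes 3 and 18 only 3.76% (3.53% to 4.00%) were found against IgG, while elsewhere the share was 33.2% (32.6% to 33.7%), with a range over chromosomes of 17.3% to 55.4%.

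Dual-control peaks were wide and IgG-only peaks were short. In the IgG list, dual-control peaks had a median width of 213 bp, with quartiles of 147 and 348 bp. Of the IgG-only peaks, 53.7% (51.7% to 55.7%) had exactly 123 bp, the shortest width in either list, against 12.7% (12.1% to 13.4%) of the dual-control peaks. The widest IgG-only peak measured 478 bp. None of the 2527 reached 500 bp (0% to 0.146%), while 1441 dual-control peaks did, 13.1% of that class. Of the 2753 IgG-list peaks of 123 bp, 50.7% (48.8% to 52.6%) were found against input. The share rose to 78.1% at 124 to 199 bp, 95.1% at 200 to 299 bp and 99.1% at 300 to 499 bp, and all 1441 peaks of 500 bp or wider were found.

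For input-list peaks the relation to width depended on the chromosome. Outside chromosomes 3 and 18 the share found against IgG rose from 6.83% (6.32% to 7.36%) at 123 bp to 51.4% (49.9% to 52.9%) at 200 to 299 bp. It reached 93.8% (92.7% to 94.8%) of the 1988 peaks of 500 bp or wider. On chromosomes 3 and 18 it rose only from 0.955% (0.686% to 1.29%) at 123 bp to 6.28% (5.58% to 7.03%) of the 4477 peaks of 500 bp or wider. Wide input-list peaks were thus nearly always matched by an IgG-list peak in one place and rarely in the other.

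Input-only peaks themselves had 2 different width profiles. Away from chromosomes 3 and 18 they were short, with a median of 130 bp, 44.7% at 123 bp and 123 of 19290 peaks (0.638%) of 500 bp or wider. On chromosome 3 their median was 175 bp, and 8.58% were 500 bp or wider. On chromosome 18 the median was 234 bp, and 24.4% (23.7% to 25.2%) were 500 bp or wider. Dual-control peaks there had a median of 199 bp in the IgG list. In the input list, from which input-only peaks come, dual-control peaks were wider than these. Their median on chromosome 18 was 378 bp, and 40.7% (34.6% to 47.0%) were 500 bp or wider. Of the 379 input-only peaks of 2000 bp or wider, 374 lay on chromosome 18, 4 on chromosome 3 and 1 elsewhere. All 20 of 5000 bp or wider lay on chromosome 18.

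**Figure D2:**
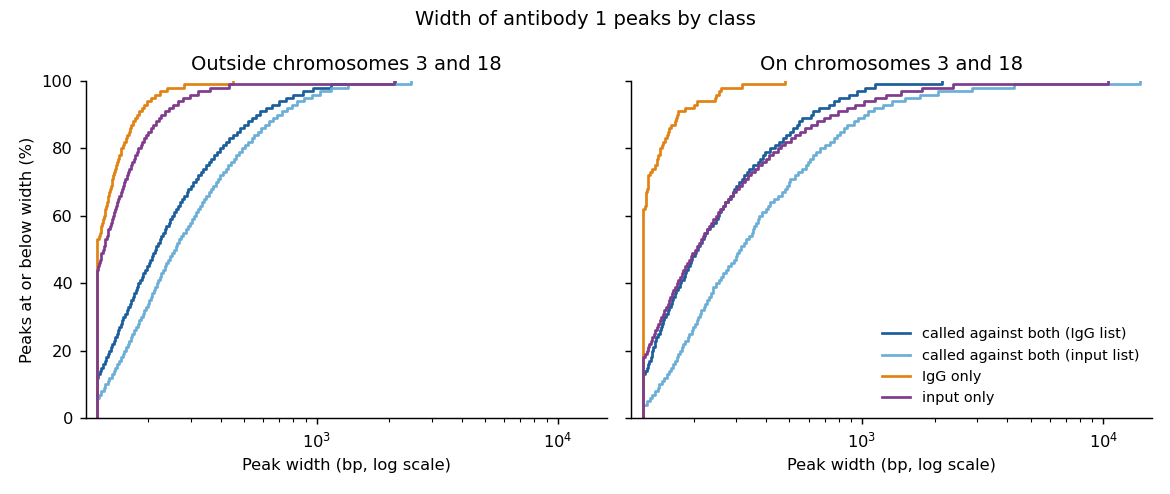
Cumulative share of peaks (%) by width in bp (log scale) for each class, outside chromosomes 3 and 18 (left) and on them (right). Outside, input-only peaks lie close to the short IgG-only peaks (medians of 130 and 123 bp). On chromosomes 3 and 18 their median meets that of the dual-control peaks from the IgG list (202 and 204 bp), while their upper part reaches farther (95th percentiles of 1127 and 804 bp). Dual-control peaks from the input list are wider there than input-only peaks, with a median of 310 bp and a 95th percentile of 1507 bp.

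Where a site was called against both controls, the input-list peak was usually the wider one. Of the sites, 9737 paired a single IgG-list peak with a single input-list peak. In 6813 of these pairs (70.0%, 69.0% to 70.9%) the input-list peak was wider, in 2074 it was narrower, and in 850 the widths were equal. The median widths were 208 bp against IgG and 248 bp against input, and the median ratio was 1.09. The midpoints differed by a median of 13 bp, and 738 pairs had identical ends. On chromosome 18 the median ratio was higher, at 1.33, with median widths of 192 and 362 bp over 234 pairs, and on chromosome 3 it was 1.16 over 631 pairs. In 532 cases 1 input-list peak overlapped several IgG-list peaks, up to 6. The reverse, an IgG-list peak spread over several input-list peaks, occurred 133 times.

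The widest peaks show the same course. Outside chromosomes 3 and 18 the widest dual-control peaks in the IgG list lay on chromosome 8 at 128749175 to 128751282 (2108 bp), chromosome 11 at 10878831 to 10880843 (2013 bp) and chromosome 15 at 76628843 to 76630787 (1945 bp). Their input-list counterparts measured 2071, 1999 and 2465 bp, so position and width hardly depended on the control in the first and second of them. The peak on chromosome 8 overlapped no RNAPII peak called against IgG, the nearest being 464 bp away. Those on chromosomes 11 and 15 overlapped 2 and 1. On chromosome 3 the widest, at 194407532 to 194408977 (1446 bp), lay in an input-list peak of 2438 bp, and on chromosome 18 the peak at 61033139 to 61035274 (2136 bp) lay in one of 3044 bp. They overlapped 2 and 3 RNAPII peaks called against IgG. The widest input-list peak of all, on chromosome 18 at 57017922 to 57032194, spanned 14273 bp and held a single IgG-list peak of 551 bp (57026277 to 57026827). The widest dual-control peaks of the input list outside chromosomes 3 and 18 included a further one on chromosome 15 (75639042 to 75641361, 2320 bp) and one on chromosome 1 (150335866 to 150338058, 2193 bp), which overlapped 3 and 2 IgG-list peaks.

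RNAPII peaks without a named control are those called against IgG. Among IgG-only peaks the widest lay on chromosome 3 at 32021977 to 32022454 (478 bp), 694 bp from the nearest input-list peak and within an RNAPII site of 595 bp. The next, on chromosome 9 at 139293702 to 139294151 (450 bp), overlapped 2 RNAPII peaks and lay 7273 bp from any input-list peak. Those on chromosome 5 at 176237979 to 176238408 (430 bp) and chromosome 2 at 177042932 to 177043321 (390 bp) overlapped no RNAPII peak, the nearest being 85049 and 37555 bp away. The widest on chromosome 18 had 259 bp (22307720 to 22307978) and lay 300781 bp from RNAPII.

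Of the input-only peaks outside chromosomes 3 and 18, the 3 widest lay within 50 kb of each other on chromosome 1, at 150481273 to 150483362 (2090 bp), 150483437 to 150485091 (1655 bp) and 150525699 to 150527421 (1723 bp). Only the last overlapped an RNAPII peak, of 276 bp. The widest on chromosome 18 spanned 10446 bp (56793473 to 56803918) and overlapped no RNAPII peak, the nearest being 2678 bp away. On chromosome 3 the widest had 2353 bp (88194859 to 88197211) and overlapped 4 RNAPII peaks.

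Spacing separated the classes further. The gap to the nearest peak of the same class had a median of 13.3 kb for dual-control peaks in the IgG list, 190.4 kb for IgG-only peaks and 0.816 kb for input-only peaks. A neighbour of the same class within 1 kb was present for 38.1% (37.2% to 39.0%) of dual-control, 3.13% (2.48% to 3.88%) of IgG-only and 52.0% (51.5% to 52.5%) of input-only peaks. Dual-control peaks had this share on chromosomes 3 and 18 (36.5%) as well as elsewhere (38.3%). For input-only peaks it was 84.1% on chromosome 18, 66.6% on chromosome 3 and 21.5% (20.9% to 22.1%) elsewhere, with median gaps of 0.162, 0.320 and 15.3 kb. Gaps also depend on the number of peaks, and the classes differ in size. No gap in any class was below 44 bp.

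Input-only peaks formed long runs on chromosomes 3 and 18. When peaks of 1 class were joined across gaps of up to 1 kb, 42.4% of input-only peaks stood in runs of 3 or more, against 13.6% of dual-control peaks in the IgG list and 3 of the 2527 IgG-only peaks. On chromosomes 3 and 18 the shares were 67.6% (67.0% to 68.1%) of input-only and 10.9% (9.06% to 13.0%) of dual-control peaks. Elsewhere the order turned, with 10.8% (10.3% to 11.2%) of input-only and 13.9% (13.2% to 14.6%) of dual-control peaks. Runs of 10 or more peaks numbered 433 among input-only peaks, of which 405 lay on chromosomes 3 and 18, and none occurred in the other classes. The longest had 193 peaks over 132.9 kb on chromosome 18 (59720354 to 59853286), and 4 of these overlapped an RNAPII peak. Elsewhere the longest had 27 peaks over 18.3 kb on chromosome 1 (150435621 to 150453925), of which 10 overlapped RNAPII. The longest dual-control run had 8 peaks over 4.77 kb on chromosome 13 (50698035 to 50702800), and all 8 overlapped RNAPII peaks.

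In bins of 1 Mb the concentration of input-only peaks was plain. Of 3021 bins, 34 held 50% of the input-only peaks, while 436 were needed for the dual-control and 324 for the IgG-only peaks. Outside chromosomes 3 and 18, 272 of 2744 bins held 50% of the input-only peaks, against 290 for IgG-only and 393 for dual-control peaks. Such numbers of bins also depend on class size, and fewer peaks can fill fewer bins. The classes there had 19290, 2348 and 9965 peaks in the same order, so these numbers do not rank their clustering. The densest bin lay on chromosome 3 (88000001 to 89000000), with 1404 input-only peaks and 2 IgG-list peaks. On the other chromosomes the densest was on chromosome 11 (120000001 to 121000000), with 652 input-only and 9 IgG-list peaks. Dual-control peaks were densest on chromosome 19 (1000001 to 2000000), with 48, and IgG-only peaks on the same chromosome (45000001 to 46000000), with 11. Bins with at least 50 input-only peaks (dense bins) numbered 97 and held 62.2% of the class. They held 94.7% of the input-only peaks on chromosomes 3 and 18, and elsewhere 21.3%.

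**Figure D3:**
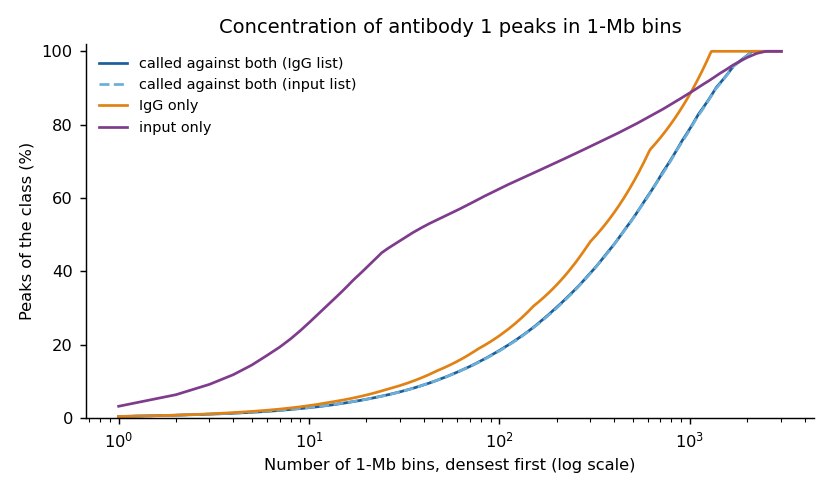
Cumulative share of peaks (%) of each class against the number of 1-Mb bins, taken from the densest down (log scale). The input-only curve reaches 50% with 34 bins, the IgG-only curve with 324 and the dual-control curves, which lie on each other, with 436 and 437; the bins of chromosomes 3 and 18 are included. The classes differ in size, which also affects these numbers.

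Few peaks missed by one control were narrow misses of position. Of the 2527 IgG-only peaks, 171 (6.77%) lay within 200 bp of an input-list peak and 452 (17.9%) within 1 kb, with a median distance of 20.9 kb. The median distance from an input-only peak to the nearest IgG-list peak was 67.0 kb. The 2 distances cannot be ranked against each other, because the IgG list has 13499 peaks to lie near and the input list 54038. Within 1 kb of an IgG-list peak were 9.43% (9.03% to 9.86%) of them outside chromosomes 3 and 18 and 1.66% (1.50% to 1.82%) on these chromosomes.

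Overlap with RNAPII peaks, which the sorting into classes did not use, was over all widths highest in dual-control peaks with either RNAPII list. Over all chromosomes the order of the other classes turned with the control behind the RNAPII list. The RNAPII list called against IgG had 50161 peaks. It overlapped 55.2% of all IgG-list peaks and 19.1% of all input-list peaks of antibody 1. Among dual-control peaks 6819 of 10972 overlapped (62.1%, 61.2% to 63.1%), and drawn from the input list 6630 of 10525 did (63.0%, 62.1% to 63.9%). Among IgG-only peaks 627 of 2527 did (24.8%, 23.1% to 26.5%), and among input-only peaks 3714 of 43513 (8.54%, 8.27% to 8.80%). RNAPII peaks covered 0.597% of the chromosome spans, and held 56.8% of the bases of dual-control peaks, 23.7% of those of IgG-only peaks and 5.69% of those of input-only peaks. These shares of bases were 95.1, 39.8 and 9.52 times the share of the spans under RNAPII peaks.

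The IgG-list classes share the IgG control with this RNAPII list, and what part of their overlap comes from it was not tested. Against the RNAPII list called with input, which overlapped 57.8% of all IgG-list peaks, dual-control peaks overlapped in 66.1% (65.2% to 67.0%) of cases and IgG-only peaks in 21.96% (20.4% to 23.6%). Input-only peaks overlapped that list in 39.8% (39.3% to 40.2%) of cases, which puts them above IgG-only peaks and so reverses the order of these 2 classes. There the input control is the shared one, and what part of the overlap comes from it was not tested. That list overlapped 44.9% of all input-list peaks.

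With the RNAPII list called against IgG, the share was alike in both places for dual-control peaks and lower on chromosomes 3 and 18 for input-only peaks. Dual-control peaks overlapped it in 63.2% (60.1% to 66.1%) of cases on these chromosomes and in 62.0% (61.1% to 63.0%) elsewhere, so their intervals overlapped. Taken singly, they did so in 65.4% (61.8% to 68.9%) of cases on chromosome 3 and in 57.4% (51.4% to 63.2%) on chromosome 18. Input-only peaks did so in 3.59% (3.36% to 3.83%) of 24223 cases on them and in 14.7% (14.2% to 15.3%) of 19290 elsewhere. The share was alike on chromosome 3 (3.53%) and chromosome 18 (3.64%), although RNAPII peaks covered 0.627% and 0.572% of these chromosomes, against 0.596% elsewhere. IgG-only peaks overlapped in 24.4% of 135 cases on chromosome 3, 9.09% (2.53% to 21.7%) of 44 on chromosome 18 and 25.1% (23.4% to 26.9%) elsewhere.

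With the RNAPII list called against input the direction turned for input-only peaks. They overlapped it in 51.5% (50.9% to 52.2%) of cases on chromosomes 3 and 18, made up of 39.1% on chromosome 3 and 61.7% on chromosome 18, and in 25.02% (24.4% to 25.6%) elsewhere. Dual-control peaks were also higher on chromosomes 3 and 18, at 71.6% (68.7% to 74.4%) against 65.5% (64.6% to 66.5%). Of the 80364 peaks in that RNAPII list, 21269 lay on chromosomes 3 and 18. Whether input-only peaks overlapped RNAPII less or more often on these chromosomes therefore depended on the control used for RNAPII.

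**Figure D4:**
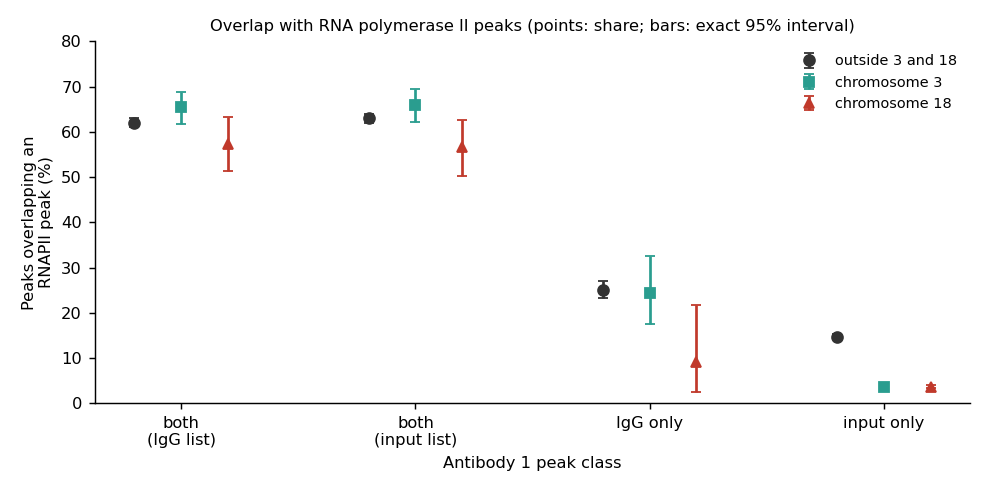
Share of antibody 1 peaks (%) that overlap an RNAPII peak called against IgG, by class, outside chromosomes 3 and 18 and on each of them; bars are exact 95% intervals over peaks. Dual-control peaks lie between 56.6% and 65.8% in all places, and input-only peaks are at 14.7% outside and at 3.53% and 3.64% on chromosomes 3 and 18; with the RNAPII list called against input, which is not drawn, the last 3 shares are 25.02%, 39.1% and 61.7%.

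Against the IgG-called RNAPII list the order of the classes was the same on most chromosomes. The share of dual-control peaks in RNAPII exceeded that of IgG-only and of input-only peaks on 23 of 23 chromosomes, with a range of 53.9% to 68.6%. IgG-only peaks ranged from 9.09% on chromosome 18 to 56.0% on chromosome X, where the class had 25 peaks. They exceeded input-only peaks on 20 chromosomes, and the exceptions were chromosomes 19, 20 and 22. Input-only peaks ranged from 3.53% on chromosome 3 to 28.9% on chromosome 19, with a median of 15.1%. Against the input-called RNAPII list dual-control peaks were again highest on 23 of 23 chromosomes, but IgG-only peaks exceeded input-only peaks on 8 only.

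Classes were also compared at equal width, first with the RNAPII list called against IgG. Among peaks of 123 bp outside chromosomes 3 and 18, 26.2% (23.8% to 28.7%) of dual-control, 17.0% (15.0% to 19.2%) of IgG-only and 7.88% (7.32% to 8.47%) of input-only peaks overlapped RNAPII. At 200 to 299 bp the shares were 69.2% (67.2% to 71.0%), 47.5% (38.2% to 56.9%) and 26.0% (24.2% to 27.9%). At 500 bp or wider, 85.1% of 1288 dual-control and 43.9% (35.0% to 53.1%) of 123 input-only peaks overlapped. The intervals of the 3 classes were separate up to 299 bp. At 300 to 499 bp the class of 15 IgG-only peaks was too small, with an interval of 26.6% to 78.7%. With the RNAPII list called against input, IgG-only and input-only peaks outside chromosomes 3 and 18 had overlapping intervals in these width classes, with 15.0% (13.1% to 17.1%) and 12.7% (12.0% to 13.4%) at 123 bp and 44.9% (35.7% to 54.3%) and 45.8% (43.7% to 48.0%) at 200 to 299 bp. Dual-control peaks stayed above both up to 299 bp, with 29.8% (27.3% to 32.4%) at 123 bp and 72.8% (70.9% to 74.6%) at 200 to 299 bp. At 500 bp or wider, 87.7% (85.7% to 89.4%) of dual-control and 90.2% (83.6% to 94.9%) of input-only peaks overlapped.

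The overlap of input-only peaks on chromosomes 3 and 18 with RNAPII called against IgG stayed low at every width, though it was higher among the widest. It was 2.45% (2.00% to 2.96%) at 123 bp, 3.38% at 200 to 299 bp, 2.99% at 300 to 499 bp and 6.05% (5.35% to 6.82%) at 500 bp or wider. Dual-control peaks of the IgG list on the same chromosomes rose from 21.1% (14.4% to 29.2%) at 123 bp to 90.2% (84.3% to 94.4%) at 500 bp or wider. Drawn from the input list, they rose from 17.1% (7.15% to 32.1%) to 78.6% (73.4% to 83.3%). With RNAPII called against input, the input-only peaks there rose from 17.1% (16.0% to 18.3%) at 123 bp to 97.2% (96.7% to 97.7%) at 500 bp or wider, which was 4079 of 4196. At that width dual-control peaks there had 94.1% (89.1% to 97.3%) in the IgG list and 94.3% (90.9% to 96.7%) in the input list. Among the widest peaks there, dual-control peaks were therefore not above input-only peaks. A wide peak has more room to touch an RNAPII peak, so a rise with width is partly built in.

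**Figure D5:**
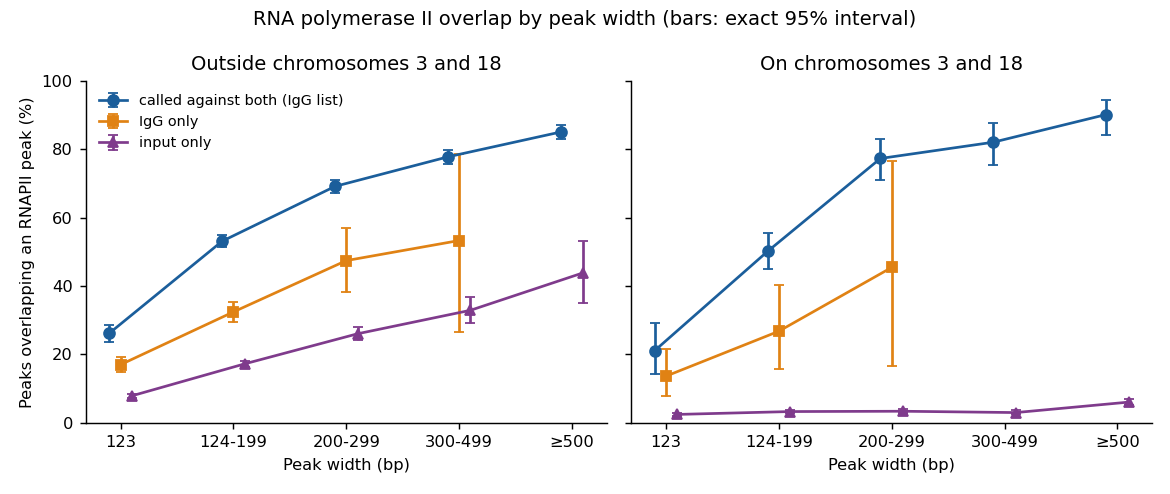
Share of peaks (%) overlapping, by width class (bp), an RNAPII peak called against IgG, for dual-control (IgG list), IgG-only and input-only antibody 1 peaks, outside chromosomes 3 and 18 (left) and on them (right); bars are exact 95% intervals, and points with fewer than 10 peaks are left out. On the left each class rises with width, and on the right the input-only points stay between 2.45% and 6.05%.

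Input-only peaks overlapped RNAPII called against IgG less often inside dense bins than in other bins, and RNAPII called against input more often. With the IgG-called list, outside chromosomes 3 and 18 they did so in 11.3% (10.3% to 12.3%) of 4107 cases inside bins with at least 50 of them, and in 15.7% (15.1% to 16.3%) of 15183 cases in other bins. The corresponding shares on chromosomes 3 and 18 were 3.17% (2.95% to 3.41%) of 22950 and 11.2% (9.48% to 13.0%) of 1273. With the input-called list the shares were 40.4% (38.9% to 42.0%) in dense and 20.9% (20.2% to 21.5%) in other bins outside chromosomes 3 and 18, and 53.6% (52.9% to 54.2%) and 14.7% (12.8% to 16.8%) on them. Dual-control peaks on chromosomes 3 and 18 overlapped the IgG-called list in 58.1% (53.2% to 62.9%) of 418 cases in dense bins and in 66.7% (62.8% to 70.5%) of 589 in other bins. Against the input-called list their shares were 74.9% (70.4% to 79.0%) and 69.3% (65.4% to 73.0%), with overlapping intervals.

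Peaks that missed RNAPII called against IgG also differed in how far away they lay. Median distances to the nearest RNAPII peak were 16.9 kb for dual-control, 33.0 kb for IgG-only and 83.3 kb for input-only peaks that did not overlap one. Within 1 kb without touching lay another 10.8%, 10.5% and 5.57% of the classes. More than 50 kb from RNAPII were 13.4% of dual-control, 32.7% of IgG-only and 53.4% of input-only peaks, with 72.3% of input-only peaks on chromosome 3. With RNAPII called against input the median distances over all chromosomes were 13.4, 24.7 and 8.92 kb. More than 50 kb away lay 10.8%, 29.8% and 17.8% of the classes, so that input-only peaks no longer lay farthest. Outside chromosomes 3 and 18 input-only peaks still lay farthest from that list. The medians there were 12.9, 23.1 and 32.7 kb, and 10.9%, 28.8% and 33.1% of the classes lay more than 50 kb away.

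Seen from RNAPII called against IgG, 6793 of its 50161 peaks (13.5%, 13.2% to 13.8%) overlapped a dual-control peak, and these had a median width of 463 bp. Another 518 (1.03%) overlapped an IgG-only peak alone, 3143 (6.27%) an input-only peak alone, and 39688 (79.1%) no antibody 1 peak of either list, the last with a median width of 221 bp. Dual-control peaks were present in the same share of RNAPII peaks on chromosomes 3 and 18 (13.7%, 12.8% to 14.8%) as elsewhere (13.5%, 13.2% to 13.8%), within their intervals. Input-only peaks alone were present in 18.7% (17.6% to 19.9%) of RNAPII peaks on chromosomes 3 and 18 and in 5.00% (4.81% to 5.21%) elsewhere. The RNAPII peaks that overlapped them were narrower on chromosomes 3 and 18, with a median of 264 bp against 382 bp. In the RNAPII list called against input, dual-control peaks were present in 3.32% (3.08% to 3.57%) of the peaks on chromosomes 3 and 18 and in 10.7% (10.4% to 10.9%) elsewhere. Input-only peaks alone were present in 59.7% (59.1% to 60.4%) and 6.57% (6.37% to 6.77%). Input-only peaks covered 8.70 Mb of a span of 275.8 Mb on chromosomes 3 and 18, and 3.08 Mb of 2726.6 Mb elsewhere. An RNAPII peak of either list thus meets one more easily there, and what part of the shares comes from this was not tested.

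Antibody 2, the other antibody against PRDM11, was compared through the list called with the control that the antibody 1 list did not use. For IgG-only and input-only peaks this leaves no shared control. Dual-control peaks were called against both controls, so they share one with either list of antibody 2. What part of their overlap comes from it was not tested. Its input list overlapped 48.2% of all IgG-list peaks of antibody 1, made up of 56.2% (55.3% to 57.2%) of dual-control and 13.2% (11.9% to 14.6%) of IgG-only peaks. Its IgG list overlapped 17.9% of all input-list peaks, made up of 55.6% (54.6% to 56.5%) of dual-control and 8.76% (8.50% to 9.03%) of input-only peaks. When only antibody 1 and antibody 2 peaks of 200 bp or wider were used, the shares were 48.0% for dual-control peaks of the IgG list, 6.16% (2.86% to 11.4%) for IgG-only and 1.69% (1.49% to 1.91%) for input-only peaks. Antibody 2 peaks of any width covered 2.28% of the spans in its input list and 2.16% in its IgG list. Input-only peaks overlapped in 5.97% (5.67% to 6.27%) of cases on chromosomes 3 and 18 and in 12.3% (11.8% to 12.7%) elsewhere. Those that did overlap antibody 2 were also more often in RNAPII called against IgG outside these chromosomes, at 30.2% against 12.6% of the others. For dual-control peaks, drawn from the IgG list over all chromosomes, the corresponding shares were 71.0% and 50.7%.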

How the data were processed

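One antibody 1 library was read through 2 deposited peak lists, 1 per control. Per the submitters' processing notes the tools were Bowtie 0.12.7, SAMtools and MACS2 2.0.9 on build hg19, without order or settings. The file names give the control and q 0.1. Each deposited list has 3 columns (chromosome, start, end) and no score, so depth is unknown and a stricter threshold could not be set. A peak caller sets the shortest width and joins near peaks, which affects widths and gaps. Starts were counted from 0 and are printed from 1.

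Overlap meant at least 1 bp. Gaps were measured from end to start, and bins hold peak midpoints. The regions named are, per class, the 3 widest outside chromosomes 3 and 18, the widest on each of them, and the densest bins. The members, classes and lists were chosen with earlier results of these data known, and width classes, runs and dense bins (at least 50 input-only peaks) were added after seeing the data. No test was made, as each group has 1 library. Alternatives were another overlap, width minimum, chromosome set, RNAPII list and merging. Gene starts and sequences were not used, because the annotation at hand is of another build. Python 3.11.15, NumPy 2.4.6, pandas 2.3.3, SciPy 1.17.1 and matplotlib 3.10.9 were used. On simulated data the code found 200 of 200 planted overlaps, and 4 overlap counts were identical to those of bedtools 2.31.1.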

Additional observations from a re-analysis of the deposited data

How the results depend on the processing

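Of 71 values under alternatives, 30 stayed within the exact interval of the reported value and 41 did not. No paired analysis was possible because each group has 1 library. The share of IgG-list and of input-list peaks called against both controls was 80.5% and 18.3% with at least 50% of the peak covered, 82.5% and 20.8% when peaks within 200 bp counted, and 91.9% and 24.4% for peaks of 200 bp or wider. Outside chromosomes 3 and 18 the input-list share was 33.2%, merging both lists gave 80.4% for the IgG list, and leaving out dense bins, an alternative chosen after seeing the data, gave 80.4% and 37.4%. The median width of input-only peaks was 130 bp outside chromosomes 3 and 18, and that of dual-control input-list peaks 247 bp with 50% coverage. The share with a neighbour within 1 kb was 29.5% for dual-control, 1.37% for IgG-only and 72.4% for input-only peaks of 200 bp or wider; input-only peaks had 21.5% outside chromosomes 3 and 18 and 9.86% outside dense bins. On chromosomes 3 and 18 lay 8.90% of IgG-only and 80.7% of input-only peaks of 200 bp or wider, and 73.9% of input-only bases.

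Overlap with RNAPII peaks called against input was 66.1% for dual-control, 66.3% for dual-control input-list, 21.96% for IgG-only and 39.8% for input-only peaks. This reverses the order of the last 2 classes over all chromosomes. Outside dense bins IgG-only peaks had 21.9% and input-only peaks 20.4% with that list, with overlapping intervals. With RNAPII peaks called against both controls the shares were 61.5% for dual-control, 62.4% for dual-control input-list, 22.2% for IgG-only and 8.51% for input-only peaks. Requiring 50% coverage gave 54.9%, 53.9%, 22.7% and 6.94% in the same order, and widths of 200 bp or more gave 71.4%, 68.7%, 44.5% and 7.06%. Input-only peaks had 14.7% outside chromosomes 3 and 18 and 15.3% outside dense bins. Overlap with antibody 2 was 48.0% for dual-control, 6.16% for IgG-only and 1.69% for input-only peaks at 200 bp or more, and 36.9%, 7.32% and 3.93% with 50% coverage. Stricter coverage lowers a share by construction, and for the other differences the cause was not tested. The promoter windows were not run, since gene starts of build hg19 were not used here. Without reads, how firmly any single peak is supported is unknown.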

Other observations

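Bins with at least 50 input-only peaks were also found on 7 chromosomes other than 3 and 18, and their overlap with RNAPII called against IgG was not uniform. On chromosome 1 there were 5 such bins with 1255 input-only and 49 IgG-list peaks, of which the bin at 150000001 to 151000000 held 505 input-only peaks. On chromosome 11 there were 4, between 119000001 and 123000000, with 1843 input-only and 36 IgG-list peaks. All 49 and all 36 of these IgG-list peaks were called against both controls. RNAPII overlapped 9.48% (7.92% to 11.2%) of the input-only peaks in the chromosome 1 bins and 9.88% (8.55% to 11.3%) in the chromosome 11 bins. Neighbouring bins differed widely: at 121000001 to 122000000 on chromosome 11, 132 of 477 input-only peaks overlapped RNAPII, and in the bin just before it 9 of 652. Against the RNAPII list called with input the shares were 50.6% (47.8% to 53.4%) in the chromosome 1 bins and 40.0% (37.8% to 42.3%) in the chromosome 11 bins.

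The 4 dense bins on chromosome 19 held 254 input-only peaks, between 50 and 83 a bin, beside 133 IgG-list and 726 RNAPII peaks, and 29.1% (23.6% to 35.1%) of the input-only peaks overlapped RNAPII called against IgG, and 52.4% (46.0% to 58.6%) RNAPII called against input. The densest bin on chromosome 3 had 20 RNAPII peaks, and 14 of its 1404 input-only peaks overlapped one. A bin next to it (89000001 to 90000000) had 1228 input-only peaks and no RNAPII peak.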
